A study of Homo sapiens with 10 samples.

Results

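Wide peaks of N6-methyladenosine (m6A) signal were taken from the peak lists of V16A cells, an established line of castration-resistant prostate cancer. A peak was called wide when it lay in 1 exon block and that block was 400 bases or longer, and narrow when it lay in 1 shorter block. Of 16319 peaks in 5 libraries, 993 were wide, 10645 were narrow and 4681 had 2 or more blocks. All 5 libraries came from RNA pulled down with an antibody against m6A (MeRIP): 2 of cells in hypoxia, 2 of cells in normoxia and 1 labelled EU 40 min. EU is read here as ethynyl uridine, a nucleoside that marks newly made RNA, and the labels give no oxygen condition for it. No oxygen level or exposure time was given for the other 4 libraries, and nothing in the labels says that replicates came from separate cultures, so tests across libraries measure a spread that may be technical. The study's title sets the question, m6A on nascent RNA in a T cell activation signature under hypoxia.

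m6A is deposited on RNA during transcription by a complex built around METTL3 and METTL14, with adaptors such as WTAP, RBM15 and RBM15B, and it is read by proteins of the YTH family. In mRNA it is known to cluster in long internal exons and around and after the stop codon, often within a short motif with GGAC as its best-known form. MeRIP resolves fragments rather than single bases, so neighbouring sites in 1 long exon can merge into 1 wide block. The lists hold only peaks past the authors' threshold, so the lack of a peak does not show that a transcript lacks the mark.

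Before the results, some properties of the lists bear on all of them. The 5 lists differed in length, from 212 peaks in normoxia replicate 1 to 6621 in hypoxia replicate 2, the others holding 2879 (hypoxia 1), 1563 (normoxia 2) and 5044 (EU). The depth of each library is unknown, since no read counts were used here. The defining markers of the labelled cell type were only partly seen: of 13 prostate and epithelial markers, 2, 4, 1, 5 and 8 had a peak of any shape in hypoxia 1, hypoxia 2, normoxia 1, normoxia 2 and the EU library. CDH1, FOLH1, KRT8, KRT18 and KRT19 had none in any of them. Of 16 markers of T and NK cells, 11, 13, 4, 0 and 12 had a peak in the same order, CD4 being the marker with none in any of them, and none of 5 macrophage markers had one. The share of T cell RNA in the libraries was not tested.

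Where a wide peak reached the start of a transcript, its sequence is given first, because these peaks lie away from the 3′ end. Of 767 wide peaks in a gene with a RefSeq start window (GRCh38.p14), 12 (1.56%, 95% exact interval 0.811 to 2.72) covered at least 1 of the first 50 transcribed bases of an annotated start, against 291 of 8154 narrow peaks (3.57%, 3.18 to 3.99). By library the wide peaks numbered 0 of 36 in hypoxia 1, 9 of 175 (5.14%) in hypoxia 2, 0 of 2 in normoxia 1, 0 of 60 in normoxia 2 and 3 of 494 (0.607%) in the EU library. The narrow peaks stood at 4.46%, 4.54%, 7.41%, 2.23% and 2.28% in the same order. The EU library held 494 of the 767 pooled wide peaks, and in hypoxia 2 the wide share was above the narrow one, so no difference is read from the pooled shares. The starts shown are those of NORAD, a long non-coding RNA that binds PUMILIO proteins, of 3 histone genes, of HLA-C, an antigen-presenting molecule, and of TSSK6, a testis kinase. NORAD and H2AFX came from the naming rule, and the other 4 were chosen after their values were seen. Each line gives transcribed bases 21 to 50 of the annotated RefSeq start, 5′ to 3′, with the bases inside the wide peak in capitals.
NORAD, hypoxia 2, chr20:36050911-36050940, minus strand: CGCGGAGAGACGCAGAACGCAGCCCGCTCC
HIST1H1C, hypoxia 2, chr6:26056421-26056450, minus strand: acccgagtttttgattctcaacATGTCCGA
HIST1H3G, hypoxia 2, chr6:26271364-26271393, minus strand: TAGTCTGAGATGGCCCGCACCAAGCAGACT
H2AFX, hypoxia 2, chr11:119095416-119095445, minus strand: CGTCTGTTCTAGTGTTTGAGCCGTCGTGCT
HLA-C, hypoxia 2, chr6:31272043-31272072, minus strand: GATGCGGGTCATGGCGCCCCGAGCCCTCCT
TSSK6, EU, chr19:19515499-19515528, minus strand: GGGGTGTAGGTGCCAAGCGCCATGGCTTAG
Of the first 50 bases, the wide peak of HIST1H1C covered the last 8 and that of H2AFX the last 34, whereas NORAD, HIST1H3G, HLA-C and TSSK6 were covered over all 50. The letters GGAC, searched on the transcript strand alone, were in the covered part of none of the 12 wide peaks and of 40 of the 291 narrow ones. Over all 35116 RefSeq windows of the same 50 bases, 6632 (18.9%) held GGAC. A match or its absence in so short a window says nothing about methylation there.

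Wide peaks made up a small share of each list and the greatest share in the EU library. The share was 1.67% in hypoxia 1 (48 of 2879 peaks, 95% exact interval 1.23 to 2.20), 3.44% in hypoxia 2 (228 of 6621, 3.02 to 3.91), 2.36% in normoxia 1 (5 of 212, 0.770 to 5.42) and 5.31% in normoxia 2 (83 of 1563, 4.25 to 6.54). In the EU library it was 12.5% (629 of 5044, 11.6 to 13.4). The EU interval lay above the other 4, but with 1 EU library no test across libraries was possible. These intervals cover counting error only. The hypoxia and normoxia libraries overlapped. Hypoxia had a mean share of 2.56% ± 1.26 (SD, n = 2) and normoxia one of 3.83% ± 2.09 (SD, n = 2), which differ by -1.28 points (exact two-sided permutation test, p = 0.667, adjusted p = 0.667 over 2 tests). The difference turned to 0.197 points without normoxia replicate 2. The number of wide peaks gave a log2 difference of 2.36 between hypoxia and normoxia (exact permutation test, p = 0.667, adjusted p = 0.667), which fell to 0.33 without normoxia replicate 1. With 2 libraries against 2 the smallest p that this test can give is 0.333.

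**Figure D1:**
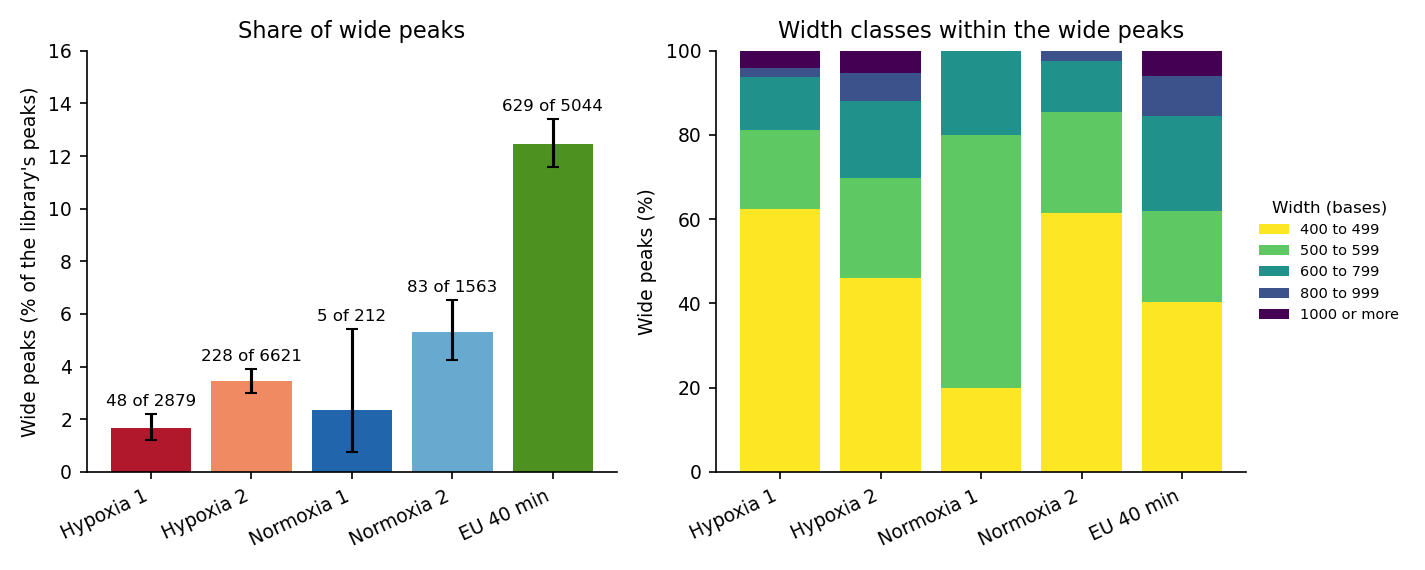
Left, wide peaks as a percentage of all peaks of each library, with 95% exact binomial intervals and the counts above each bar. Right, the wide peaks of each library split by width in bases; the EU library stands at 12.5% on the left, above the other 4, and 38 of its 629 wide peaks were 1000 bases or longer.

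Widths ran from the threshold to 2650 bases. The median wide peak was 498 bases in hypoxia 1, 501 in hypoxia 2, 546 in normoxia 1, 451 in normoxia 2 and 547 in the EU library, while narrow peaks had medians of 101 to 151. Peaks of 1000 bases or longer numbered 2, 12, 0, 0 and 38 in the same order. Because they are long, wide peaks held 5.27%, 9.94%, 7.70%, 14.1% and 29.8% of the bases covered by all peaks of those libraries. Single-block widths came in steps: 10725 of 11638 (92.2%) lay within 2 bases of a multiple of 50. Among wide peaks 676 of 993 (68.1%) did so, and the threshold falls on such a step. Just inside it, up to 1 base wider, lay 125 peaks, and 67 of them (53.6%) were met by another library, as defined below. Just outside it, from 390 bases up, lay 164, and 78 (47.6%) were met. The libraries differed in direction, so no difference is read from these pooled shares. In the EU library 30.5% of 59 were met just inside against 38.1% of 97 just outside. The share inside was the higher one in hypoxia 1 (100% against 80%), hypoxia 2 (60% against 45.9%) and normoxia 2 (86.4% against 80%). In all, 42 of the 993 overlapped another wide peak of their own library.

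The widest blocks of hypoxia 2 lay near the 3′ end of genes active in lymphocytes, and other genes led in the EU library. ETS1, a transcription factor of lymphoid and other cells, had the widest, 2650 bases in hypoxia 2 (chr11:128459211-128461860), with 601 bases in hypoxia 1 and 401 in the EU library and no wide peak in normoxia. CCND2, a D-type cyclin that drives entry into S phase, had 4 wide peaks of up to 1989 bases in hypoxia 2, 3 of up to 1045 in hypoxia 1 and 1 of 547 in the EU library. IL2RB, a signalling chain of the interleukin 2 receptor, had 1501 bases in hypoxia 2 and 401 in the EU library. In normoxia 1 these 3 genes had 1, 1 and 2 peaks, none of them wide, and in normoxia 2 they had none of any shape. In the EU library the widest were MED26, a Mediator subunit, at 1893 bases, IRF2BPL, a nuclear cofactor, at 1634 and URGCP at 1597. MED26 had no peak in the other 4 libraries, although the list of the hypoxia condition held 4, whereas IRF2BPL had narrower or spliced peaks in all of them. The widest named peaks of normoxia 2 were 845 bases in ZNF121, 843 in ARF6, a small GTPase of membrane traffic, and 751 in TNKS1BP1, and those of normoxia 1 were 584 in HIST1H1B, 546 in LCP1, an actin-bundling protein of blood cells, and 445 in ACTB, cytoplasmic actin. The widest of hypoxia 1 was LCP1 at 1142 bases.

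In each library, wide peaks were found again elsewhere more often than narrow ones. A peak counted as met when its central base lay inside a block of any peak, on the same strand, of at least 1 of the other 4 libraries. The share met was 95.8% of wide against 48.5% of narrow peaks in hypoxia 1, 65.4% against 27.0% in hypoxia 2, 5 of 5 against 70.1% in normoxia 1, 91.6% against 52.5% in normoxia 2 and 41.8% against 27.6% in the EU library. Wide peaks were thus met more often in 5 of 5 libraries. The mean difference was 33.8 points ± 12.5 (SD, n = 5; exact two-sided sign-flip permutation test, p = 0.0625, adjusted p = 0.156 over 5 tests), and 0.0625 is the smallest p that 5 libraries allow, so no difference could pass 0.05. Against narrow peaks of at least 200 bases alone the difference was 20.6 points, and against narrow peaks of the same genes, an alternative added after seeing the data, it was 14.97.

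The share met was higher in wider classes also below the threshold. In hypoxia 2 it was 384 of 1923 under 150 bases, 27.3% from 150 to 199, 36.0% from 200 to 299, 46.6% from 300 to the threshold, 62.9% from 400 to 599 and 71.0% from 600 bases. In normoxia 2 it went from 43.5% to 90.1% from under 150 to 400 to 599 bases, and all 12 peaks of the last class were met. The EU library had the flattest course, from 23.1% to 47.7%.

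**Figure D2:**
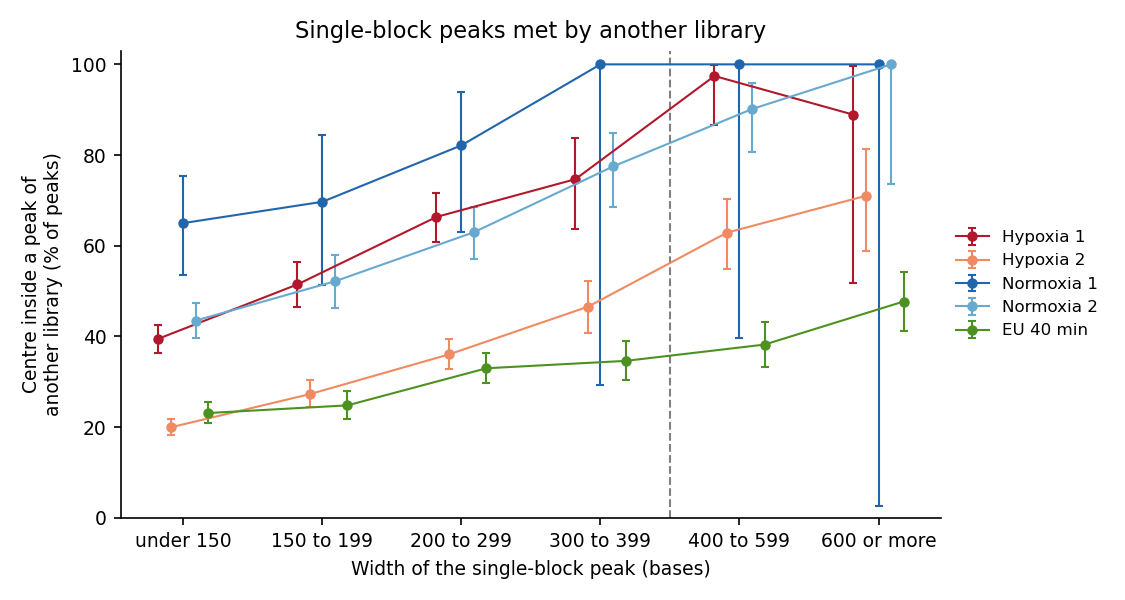
Share of single-block peaks whose centre lay inside a peak of another library (vertical axis, %) by width in bases (horizontal axis), 1 line a library, with 95% exact binomial intervals; the dashed line marks 400 bases. In hypoxia 2 the share goes from 384 of 1923 to 49 of 69 and in the EU library from 23.1% to 47.7%.

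Pairs of libraries differed in how far they shared wide peaks. The gene-level overlap was greatest in share between the hypoxia libraries and between normoxia 2 and the EU library: 30 genes had a wide peak in both hypoxia libraries, 66.7% of the 45 in hypoxia 1, while hypoxia 2 had 200. Normoxia 2 and the EU library shared 48, 61.5% of 78 and 8.50% of 565. Between hypoxia 2 and the EU library the number was 62, which is 31.0% and 10.97%. Normoxia 2 shared 7 of its 78 genes with hypoxia 1 and 24 with hypoxia 2. A wide peak often had a narrower counterpart elsewhere. Of the 228 in hypoxia 2, 120 overlapped a peak of hypoxia 1 by 1 base or more, 35 of them a wide one, and at 34 the counterpart was 2 or more narrow peaks. Of the 629 in the EU library, 238 overlapped a peak of normoxia 2, 54 of them a wide one, and 72 faced 2 or more narrow peaks. No overlap with any other library was found for 1 of 48 wide peaks in hypoxia 1, 47 of 228 in hypoxia 2, 0 of 5 in normoxia 1, 5 of 83 in normoxia 2 and 255 of 629 (40.5%, 95% exact interval 36.7 to 44.5) in the EU library. For 223 of the 629 wide peaks in the EU library, the named gene had no peak in any other library.

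Merged over libraries, the wide peaks formed 809 sites. A peak of any shape was seen there in 1 library at 306 sites (37.8%), in 2 at 250, in 3 at 170, in 4 at 74 and in all 5 at 9. A wide peak was seen in 1 library at 691 sites (85.4%), in 2 at 82, in 3 at 34, in 4 at 2 and in all 5 at none. Peaks lay in both hypoxia and no normoxia library at 96 sites and in both normoxia and no hypoxia library at 3, and 253 sites (31.3%) were seen in the EU library alone. The lists differ in length, normoxia 1 being by far the shortest, and the part of length in these counts was not tested.

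Of 4327 genes with a peak, 735 had a wide one (17%), namely 45, 200, 5, 78 and 565 genes in hypoxia 1, hypoxia 2, normoxia 1, normoxia 2 and the EU library. Of the 705 matched to RefSeq, 692 were protein-coding and 10 were long non-coding RNAs. In the EU library 53 genes had 2 or more wide peaks, against 20 in hypoxia 2. Wide peaks in 3 libraries were found in 35 genes and in 4 libraries in 2.

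NFE2L1, a transcription factor that induces proteasome genes, was the matched gene with a wide peak in 4 libraries: 499 bases in hypoxia 1, 598 in hypoxia 2, 598 in normoxia 2 and 1096 in the EU library. The first 3 peaks began at the same base (chr17:48059496) and the fourth began earlier and enclosed them. SOX4, a developmental transcription factor, had 696 bases in hypoxia 2, 596 in normoxia 2 and 1488 in the EU library. It was thus widest in the EU library, as were CLDN4, a tight-junction protein (451 in hypoxia 2, 649 in normoxia 2 and 1299 in EU), and CENPB, a centromere-binding protein (499, 549 and 997 in the same libraries). HNRNPF, a splicing regulator, was widest in hypoxia 2, with 494 bases in hypoxia 1, 1283 in hypoxia 2, 592 in normoxia 2 and no wide peak in EU. EPPK1, a giant plakin of epithelia, had the most wide peaks in 1 library, 6 in EU, with 3 in hypoxia 2 and 2 in normoxia 2, and some of them overlapped each other.

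**Figure D3:**
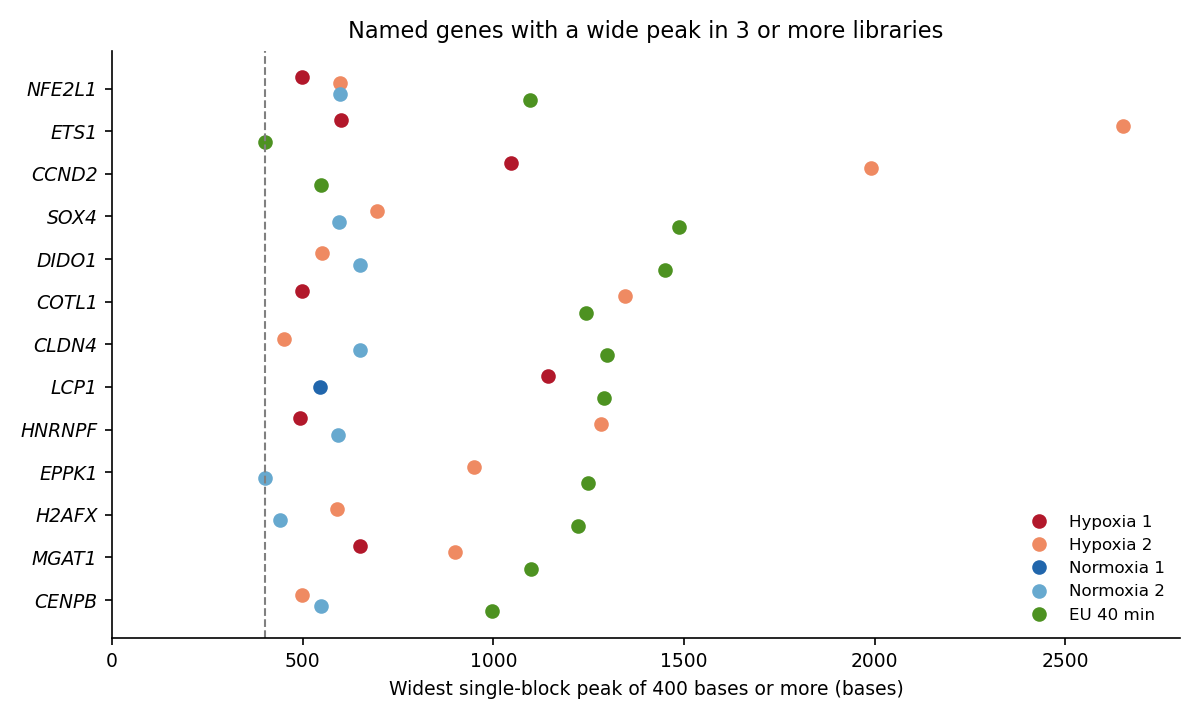
Width in bases of the widest wide peak (horizontal axis) of 13 named genes with wide peaks in at least 3 libraries, 1 point a library; a missing point means no wide peak there, and the dashed line marks 400 bases. ETS1 and CCND2 are widest in hypoxia 2, SOX4 and DIDO1 in the EU library, and LCP1 is the one gene with a point for normoxia 1.

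Along the gene, wide peaks were scarcer near the start than narrow ones. The first 20% of the RefSeq gene span, introns included, held 4.44% of wide against 15.1% of narrow peaks in hypoxia 1, 8.60% against 14.0% in hypoxia 2, 0% against 20.8% in normoxia 1 (3 placed wide peaks), 7.59% against 15.5% in normoxia 2 and 8.44% against 12.7% in the EU library. The share was lower in 5 of 5 libraries, by a mean of -9.79 points ± 6.61 (SD, n = 5; exact sign-flip permutation test, p = 0.0625, adjusted p = 0.156). Against narrow peaks of at least 200 bases the mean difference was -4.64 points. That stretch was not empty: NORAD in hypoxia 2 had a wide peak centred at 0.0887 of its span.

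The last 20% of the span held about as many wide as narrow peaks on average, with opposite signs by condition. It held 27 of 45 wide (interval 44.3 to 74.3%) against 48.5% of narrow peaks in hypoxia 1, 59.7% against 51.9% in hypoxia 2, 33.3% against 36.9% in normoxia 1, 45.6% against 47.6% in normoxia 2 and 47.8% against 53.1% in the EU library. The mean difference was 1.70 points ± 7.49 (SD, n = 5; exact sign-flip permutation test, p = 0.625, adjusted p = 0.625). It was -0.75 points without hypoxia replicate 1 and -2.31 against narrow peaks of at least 200 bases. Against narrow peaks of the same genes the comparison gave 11.5 points, higher in 5 of 5 libraries (exact sign-flip permutation test, p = 0.0625), an alternative added after seeing the data. Examples from the last 20% are ETS1, IL2RA, IL2RB, CCND2, LCP1 and B2M, all centred beyond 0.8 of the span.

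**Figure D4:**
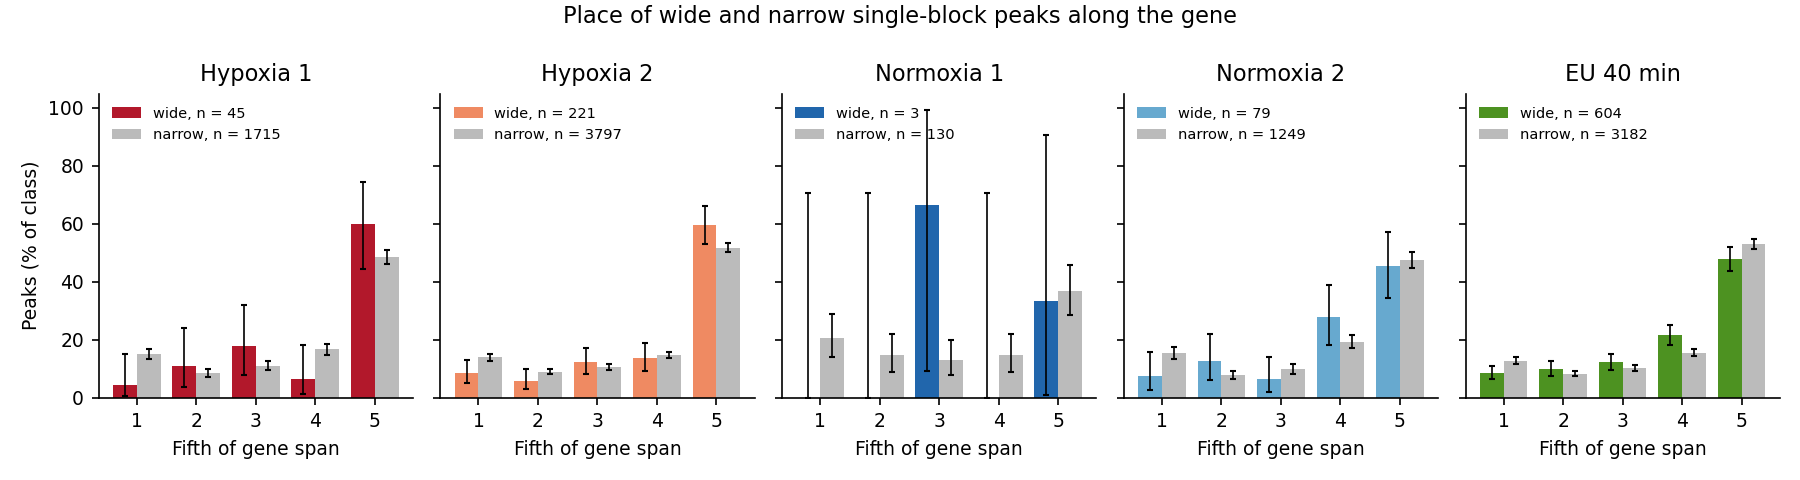
Share of wide (coloured) and narrow (grey) single-block peaks by the 20% step of the gene span that holds their centre (horizontal axis, 1 at the gene's start), 1 panel a library, with 95% exact binomial intervals. The first step is lower for wide peaks in every panel, and the wide bars of normoxia 1 rest on 3 peaks.

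Genes with a wide peak had the shorter median span in 4 of 5 libraries, and peak strength gave no common direction. The median span of genes with a wide peak was 13.4 kb in hypoxia 1, 25.3 in hypoxia 2, 3.45 in normoxia 1, 20.3 in normoxia 2 and 22.3 in the EU library. Genes with narrow peaks alone had 23.7, 23.6, 13.7, 20.7 and 23.2 kb in the same order. The mean log2 ratio was -0.56 ± 0.88 (SD, n = 5; exact sign-flip permutation test, p = 0.3125, adjusted p = 0.521), and it was -0.20 without normoxia replicate 1. Against genes with narrow peaks of at least 200 bases it was -0.73, lower in 5 of 5 libraries (exact sign-flip permutation test, p = 0.0625), from -2.50 in normoxia 1 to -0.03 in normoxia 2. In 15 genes a wide peak covered 50% or more of the whole span. Among them HIST1H1E reached 77.9%, H2AFX 76.8%, CLDN4 76.6% and JUND 76.3%. The deposited p of wide peaks ranked lower, meaning stronger, than that of narrow peaks in hypoxia 1, normoxia 1 and EU and higher in hypoxia 2 and normoxia 2, with a mean rank difference of -6.34 percentile points ± 18.7 (SD, n = 5; exact sign-flip permutation test, p = 0.5, adjusted p = 0.625). It was -0.402 without normoxia replicate 1. This p is not a property of 1 peak alone: 469 of 696 wide peaks (67.4%) in genes with several peaks had the same value as another peak of that gene in that library.

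The gene lists below were chosen with earlier results known, and their counts are to be read against the share over all genes with a peak. That share was 3.58% in hypoxia 1, 9.3% in hypoxia 2, 3.6% in normoxia 1, 8.7% in normoxia 2 and 17% over any of the 5. In the EU library 565 of 2389 genes with a peak (23.7%) had a wide one. Intronless or nearly intronless genes reached 23 of 34 there (67.6%). The count was 2 of 12 (16.7%) in hypoxia 1 and 5 of 20 (25%) in hypoxia 2. In normoxia 1 and 2 it was 0 of 3 and 4 of 17 (23.5%). These genes were thus above the share of all genes in every library except normoxia 1. They include JUN, an AP-1 transcription factor, with overlapping blocks of 400 bases in hypoxia 1, 450 in hypoxia 2 and 799 in EU. JUN also had a separate block of 848 in EU. JUND, its relative, had 1471 in EU and 785 in hypoxia 2. Immediate early genes had 9 of 24 (37.5%) in EU. They had 1 of 10 in hypoxia 1 and 4 of 17 in hypoxia 2. In normoxia 1 and normoxia 2 it was 0 of 1 and 0 of 11. The lists of intronless and immediate early genes overlap. JUN, JUNB, JUND, IER2, IER5, RHOB and TOB1, each with a wide peak in EU, stand in both. IER5, a stress-induced nuclear protein, had a wide peak of 948 bases in EU alone, and DUSP4, a phosphatase of MAP kinases, one of 697 bases in hypoxia 2 alone. DUSP1, another MAP kinase phosphatase, and HNRNPA0, an mRNA-binding protein, had peaks in EU but no wide one, and MYC, a growth-promoting transcription factor, had one of 591 bases in EU.

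Wide peaks in transcription and chromatin genes lay mostly in the EU library, which held 629 of all 993 wide peaks. Of ZNF genes, which encode DNA-binding zinc fingers often in 1 long last exon, 69 of 202 with a peak (34.2%) had a wide one in EU, against 0 of 29, 2 of 57, 0 of 0 and 3 of 40 in hypoxia 1, hypoxia 2, normoxia 1 and normoxia 2. Of 71 wide peaks in ZNF genes in EU, 47 overlapped no peak of another library. Among all wide peaks in EU it was 255 of 629 (40.5%). ZNF146 had wide peaks in 3 libraries, of 650 bases in hypoxia 2, 450 in normoxia 2 and 800 in EU. Of chromatin and cohesin regulators 16 of 28 (57.1%) had a wide peak in EU. The count was 2 of 13 (15.4%) in hypoxia 1, 3 of 25 (12%) in hypoxia 2 and 2 of 8 (25%) in normoxia 2. No member had a peak in normoxia 1. The share of these regulators was above that of all genes in each library where any had a peak, on few genes. The Polycomb genes CBX2 and CBX8 had 749 and 844 bases in EU, beside 550 in normoxia 2 and 447 in hypoxia 2. WAPL, which releases cohesin from chromatin, had 599 bases in hypoxia 1 and 550 in EU, and CBX5, a heterochromatin protein, had 8 and 13 peaks in the hypoxia libraries, none of them wide.

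The machinery of m6A itself carried wide peaks. Of 22 writers, erasers and readers, 11 had a peak in some library and 8 of these a wide one (72.7%, against 17% of all genes), 6 of 10 in EU, 2 of 6 in normoxia 2, 1 of 7 in hypoxia 2 and none in hypoxia 1 or normoxia 1. RBM15B, an adaptor of the writer complex, had 1349 bases in EU and 450 in normoxia 2, and its relative RBM15 had 697 in EU alone. The readers YTHDF3 and YTHDF2 had 647 bases in EU and 496 in normoxia 2.

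HIF targets and immune genes with a wide peak were most numerous in hypoxia 2, the longest list. There 200 of 2151 genes with a peak (9.3%) had a wide one, against 3.58% in hypoxia 1, 8.7% in normoxia 2 and 23.7% in EU. Of 35 genes of the HIF pathway, 5, 10, 0, 3 and 6 had a peak and 2, 6, 0, 1 and 3 a wide one in hypoxia 1, hypoxia 2, normoxia 1, normoxia 2 and the EU library. In each library where any had a peak, their share with a wide one was above that of all genes, on few genes. VEGFA, the growth factor of blood vessels, had 401 bases in hypoxia 1, 650 in hypoxia 2 and 500 in EU, near the 3′ end (chr6:43784889-43785538 in hypoxia 2), and in normoxia 2 it had 2 peaks, neither wide. DDIT4, an inhibitor of mTORC1, was wide in hypoxia 2 (588), normoxia 2 (491) and EU (833). BHLHE40, a transcriptional repressor, had 798 in hypoxia 2 and 848 in EU, and STC2, a secreted glycoprotein, 499 in hypoxia 1 and 599 in hypoxia 2. HIF1A, the oxygen-regulated subunit, had 4 peaks in hypoxia 2, none wide.

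Of 46 T cell receptor signalling genes, 8 of 28 with a peak had a wide one in hypoxia 2, 2 of 19 in hypoxia 1, 0 of 2 in normoxia 1, 0 of 1 in normoxia 2 and 3 of 17 in EU. The interleukin 2 receptor chains stood among them: IL2RA, the high-affinity chain, had 1291 bases in hypoxia 2 and 547 in EU, and IL2RG, the common gamma chain, had 444 in hypoxia 1 and 493 in hypoxia 2. Of 18 antigen presentation genes, 6 of 15 with a peak had a wide one in hypoxia 2 and 2 of 10 in hypoxia 1. It was 0 of 4 in normoxia 1, 0 of 1 in normoxia 2 and 1 of 10 in EU. For both lists the share was above that of all genes in the hypoxia libraries and below the 23.7% of EU. B2M, the light chain of HLA class I, had 401 bases in hypoxia 1, 450 in hypoxia 2 and 450 in EU, and CD74, the class II invariant chain, 598 and 647 in the hypoxia libraries. HLA-E and HLA-B had 497 and 446 in hypoxia 2. Reads of HLA genes may be split among near-identical copies. Of 16 markers of T and NK cells, 11 and 13 had a peak of any shape in hypoxia 1 and 2, 12 in EU, 4 in normoxia 1 and 0 in normoxia 2. All genes with a peak of any shape numbered 1258, 2151, 2389, 139 and 897 in the same order. Only PRF1, the pore protein of killer cells, carried wide peaks among the markers, of 547 and 846 bases in hypoxia 1 and 2. CD3E, a chain of the T cell receptor complex, had 4, 5 and 2 peaks in hypoxia 1, hypoxia 2 and EU, none wide. The part of T cell RNA in the shares of both lists was not tested. Of the prostate markers described here, KLK2, a kallikrein protease, had wide peaks of 401 bases in normoxia 2 and 551 in EU, and HOXB13, a homeobox transcription factor, had one of 447 in EU. Neither had one in a hypoxia library.

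**Figure D5:**
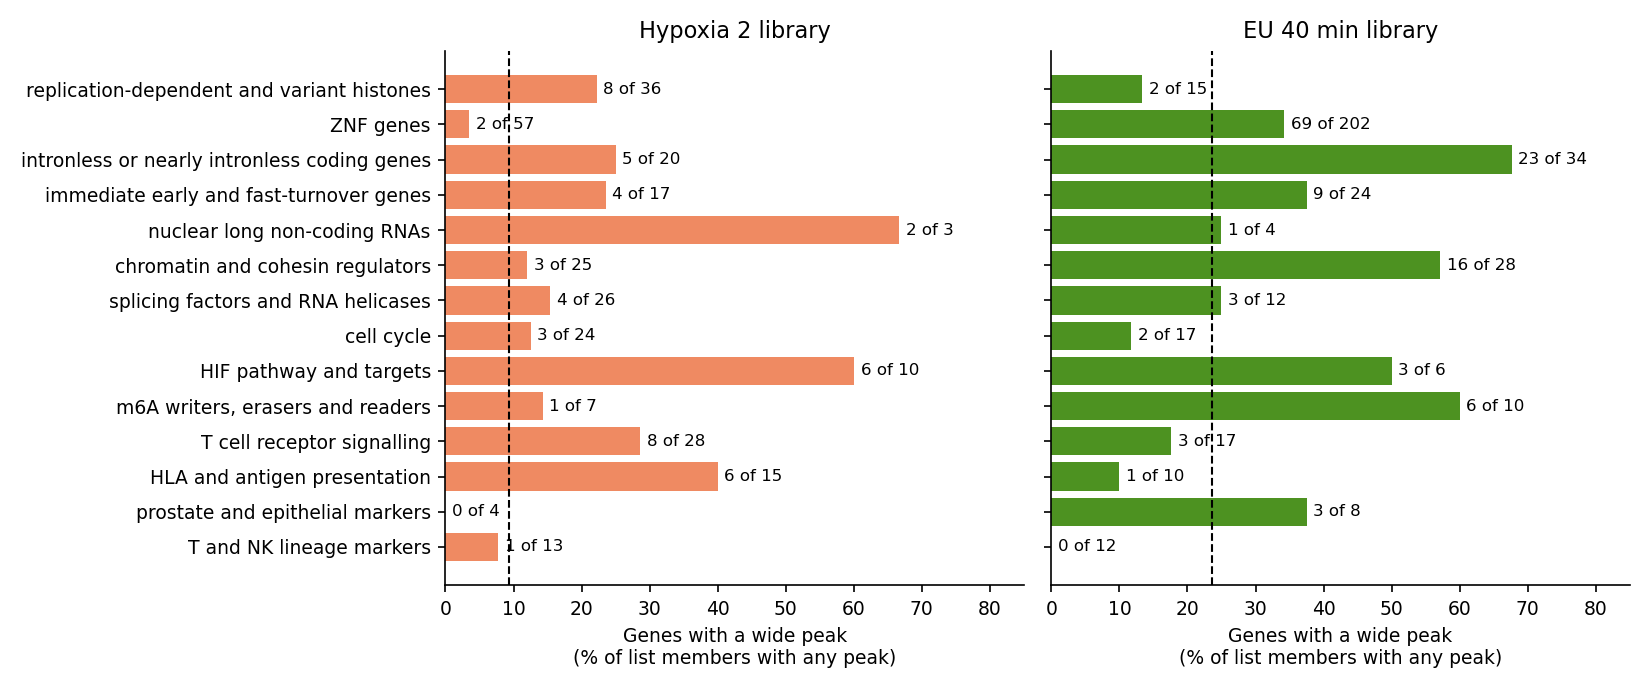
Genes with a wide peak as a percentage of the list members with any peak, in hypoxia 2 (left) and in the EU library (right), with counts beside the bars; dashed lines mark all genes with a peak, 9.3% and 23.7%. Intronless genes reach 23 of 34 in EU and HIF pathway genes 6 of 10 in hypoxia 2, and small lists rest on few genes.

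Of histone genes 8 of 43 with a peak in any library had a wide one (18.6%), near the 17% of all genes. By library the share was 3 of 33 (9.09%) in hypoxia 1, 8 of 36 (22.2%) in hypoxia 2 and 2 of 15 (13.3%) in EU. In normoxia 1 and normoxia 2 it was 1 of 10 and 1 of 5. It was thus above the share of all genes in the hypoxia and normoxia libraries and below the 23.7% of EU. HIST1H1D, a linker histone, had a block of 571 bases at the same coordinates (chr6:26234363-26234933) in hypoxia 1, hypoxia 2 and EU, and HIST1H1B one of 584 bases (chr6:27866946-27867529) in hypoxia 1, hypoxia 2 and normoxia 1. H2AFX, the histone variant of the DNA damage response, had 589 in hypoxia 2, 441 in normoxia 2 and 1223 in EU. The hypoxia 2 and normoxia 2 blocks did not overlap, being centred at 0.195 and 0.782 of the span, and the EU block overlapped both. Histone genes have near-identical copies, and their reads may be split. In the list of nuclear long non-coding RNAs, which also holds the mainly cytoplasmic NORAD, MALAT1, an abundant speckle RNA, had 448 bases at the same coordinates in both hypoxia libraries, NORAD had 949 in hypoxia 2, 400 in normoxia 2 and 899 in EU, and NEAT1, the paraspeckle RNA, had peaks but no wide one. Of cell cycle genes 3 of 32 (9.38%) had a wide peak, namely CCND2, MKI67 (948 in hypoxia 2 and, at a separate place, 599 in EU) and CDK6 (599 in hypoxia 2). Of splicing factors and helicases 8 of 34 (23.5%) had one, among them HNRNPH1 (750 in hypoxia 2), and DDX3X, an RNA helicase (450 in hypoxia 1).

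Genes with peaks in both hypoxia libraries and in no normoxia library were counted among those with wide peaks. These 4 libraries had peaks in 3226 genes, and 492 of them met that rule (15.3%). Of the 268 with a wide peak in at least 1 of the 4, 70 did, and all 70 were among the 215 with a wide peak in a hypoxia library. Having such a peak is part of what the rule asks, so nothing is read from that share. Of the 3226 genes, 353 had a wide peak in the EU library, which the rule does not use, and 32 of these 353 (9.07%) met the rule. The reverse pattern, both normoxia and no hypoxia libraries, held for 5 genes, 1 of them with a wide peak. The count fell to 65 without the T cell lists, an alternative added after seeing the data, and without hypoxia replicate 2 it was 17. Without hypoxia replicate 1 it was 120, and without normoxia replicate 2 it was 109. The presence of peaks in 2 libraries against 2 has no p below 0.333, and normoxia replicate 1 had 212 peaks in all.

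In the lists of whole conditions, 291 of 7669 hypoxia peaks (3.79%) and 91 of 2285 normoxia peaks (3.98%) were wide. Of these, 266 (91.4%) and 87 (95.6%) overlapped a peak of the condition's own replicates, and 173 (59.5%) and 53 (58.2%) overlapped a wide one. The condition lists share their libraries with the replicates' lists, so this is no independent check.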

How the data were processed

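MeRIP peak lists of 5 libraries and of 2 conditions were used; the 5 input samples had no list here. Per the submitters' processing notes, reads were aligned with STAR to hg38. Among steps not given in the sources used here are the caller, its threshold, its use of inputs and strand, and the annotation. Each list has 12 BED columns; column 5, deposited by the authors without a name, was read as a p-value from its values (0 to 0.013). Libraries were grouped by title. Starts were shifted to count from 1. Names were matched to the RefSeq table of GRCh38.p14 by symbol or synonym within 10 kb. Members, lists and tests were chosen with earlier results of these data known. Genes were named by rule: up to 15 wide in 3 or more libraries, the 3 widest and the 2 of smallest p per library, up to 4 per list, and topic genes; some of them are not reported here. Tests were exact permutation tests across libraries, two-sided, with Benjamini-Hochberg adjustment within each family, tested on simulated data. Python 3.11.15, scipy 1.17.1 and matplotlib 3.10.9 were used. Intervals are Clopper-Pearson at 95%. Depth is unknown. Alternatives changed the width, the narrow class, overlap, list length, chromosomes and libraries. Whole exons, stop codons and motifs inside peaks were not analysed here.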

Additional observations from a re-analysis of the deposited data

Results flagged for a closer look

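The share of wide peaks in the last 20% of the gene, set against narrow peaks of the same library, moved in opposite directions in the 2 conditions. It was higher by 11.5 and 7.87 points in hypoxia 1 and 2 and lower, at -3.59 and -1.99 points, in normoxia 1 and 2. The difference between the conditions was 12.5 points (exact two-sided permutation test, p = 0.333, the smallest that 2 libraries against 2 can give). The normoxia 1 value rests on 3 wide peaks. Among narrow peaks of the same genes the normoxia differences were 8.33 and 22.9 points, so the opposite signs were not seen in that alternative.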

How the results depend on the processing

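Over 97 alternative values, 85 kept their direction or stayed within 1.5 times a count, 7 counts moved and 5 differences changed sign. No test here can pass 0.05, so none could gain or lose a call. The recurrence of wide peaks kept its sign in 14 of 14 alternatives, from 14.97 to 37.8 points (p from 0.0625 to 0.125), and lay between 29.6 and 37.8 without 1 library. The lower share in the first 20% of the gene kept its sign in 14 of 14, from -11.6 to -4.64, and without 1 library from -11.2 to -7.04. The limit that width sets on the place of a peak was present in each of these alternatives. The difference in the last 20% was -2.31 against narrow peaks of at least 200 bases and ran from -0.75 to 3.45 without 1 library. The p rank difference was 0.215 against narrow peaks of at least 200 bases and 1.05 against those of the same genes, and ran from -11.0 to -0.402 without 1 library. The share of wide peaks, hypoxia minus normoxia, ran from -2.75 to 0.197 without 1 library, and the log2 number from 0.33 to 4.39. The log2 gene span was negative in 11 of 11 alternatives (-0.68 at 390 bases, p = 0.0625 in the exact sign-flip test) and ran from -0.72 to -0.20 without 1 library. The 70 genes found in hypoxia alone became 141 at 300 bases or more, 41 at 500 or more, 22 with the 50% of each list of smallest p and 152 with the condition lists, and ran from 17 to 120 without 1 library. The cause was not tested. In a replicate block over the numbered pairs, the share differed by -1.28 points and the log2 number by 2.36 (exact sign-flip test over 2 pairs, p = 0.5, the smallest it allows). The samples share only a number, and no call changed. A width of 390 bases, narrow peaks of the same genes and the count without T cell lists were added after seeing the data. Normoxia replicate 1, with 5 wide peaks, limits each comparison that uses it.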

Other observations

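The strand of the peaks was uneven, which was noticed after the data were seen. In RefSeq 13853 of 27305 genes with a start window (50.7%) lie on the plus strand. Of the 993 wide peaks 406 (40.9%, 95% exact interval 37.8 to 44.0) did so, against 33.3% of 10645 narrow peaks and 29.8% of 4681 peaks with 2 or more blocks. By library the wide peaks were on the plus strand in 33.3% of cases in hypoxia 1 (interval 20.4 to 48.4), 26.8% in hypoxia 2 (21.1 to 33.0), 0% in normoxia 1 (0 of 5), 41.0% in normoxia 2 (30.3 to 52.3) and 46.9% in the EU library (42.9 to 50.9). Narrow peaks stood at 27.7%, 31.5%, 36 of 144, 35.7% and 37.7% in the same order. The strand equalled that of the RefSeq gene for all 767 wide peaks with a start window. A window was counted only on the strand of the peak, so nothing is read from that agreement. All 12 wide peaks that reached an annotated start lay on the minus strand. The cause was not tested.

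A pair of those starts belongs to VIM-AS1, a transcript antisense to the vimentin gene, named here after its values were seen. It had wide peaks of 499, 549 and 598 bases in hypoxia 1, hypoxia 2 and the EU library. The way strand was handled is unknown here, so reads of VIM and of VIM-AS1 cannot be told apart.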
